A study of Mus musculus with 7 samples.

Results

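The nuclear genes that encode subunits of the mitochondrial respiratory chain and ATP synthase were followed in mouse precision-cut liver slices (PCLS) cultured with or without valproic acid sodium salt (VPA), a histone deacetylase inhibitor and anti-epileptic drug. Members were the protein-coding genes of the count table whose symbol begins with Nduf followed by a, b, c, s or v and a digit, with Uqcr, with Cox and a digit from 4 to 8, or with Atp5, together with the Sdh genes, Cyc1 and Cycs. The rule used gene names only and found 87 members among 55487 genes. Complexes were assigned from the symbol alone, so the place of Ndufa4 in complex I rests on its name only. On that basis the members comprised 37 genes of complex I, 4 of complex II, 10 of complex III with cytochrome c counted there, 18 of complex IV and 18 of complex V. Slices came from healthy male BALB/c mice, for which the paper gives a range of adult ages in weeks and the labels give no age. All were kept in supplemented Williams' E medium and collected on day 3, and they differed by the absence (CTR, 3 libraries) or presence of 2.5 mM VPA (4 libraries). The labels do not say which libraries share a mouse, so p-values measure the spread between these libraries, which may be partly technical.

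The respiratory chain passes electrons from NADH (complex I) and succinate (complex II) through complex III and cytochrome c to oxygen at complex IV, and complex V uses the resulting proton gradient to make ATP. Its subunits come from the nuclear and the mitochondrial genome, and hepatocytes, which are rich in mitochondria, depend on it for gluconeogenesis and urea synthesis. VPA is itself metabolised in mitochondria and is known for mitochondrial toxicity in liver. Many nuclear subunit genes have start sites near binding motifs of NRF1, of ETS factors such as GABP, or of CREB.

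Depth ranged from 1400887 to 4773750 counts per library. Levels are given as CPM, the counts of a gene scaled to library size after TMM normalization. A count of 0 allowed up to 3 counts, or 0.591 to 2.41 CPM, which covers counting error only. The libraries read the 3′ end of polyadenylated RNA, so CPM can be compared between genes without a length correction. As a check of the label, the hepatocyte genes Alb, Ahsg, Trf and Fgb were present in every library, whereas Ass1, a urea cycle enzyme, had 0 counts in all 7 libraries and Tat at most 4.61 CPM. Cps1, also of the urea cycle, was at most at 22.9 CPM with 0 counts in CTR replicate 2 and VPA replicate 2, and Cyp2e1 was at 0 in CTR replicate 1 and at 7.68 to 69.9 CPM in the others. In bulk slices, fewer cells of a type and less RNA per cell cannot be told apart.

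Promoter sequences from RefSeq (GRCm38.p6, 250 bases before to 50 bases after a start) were matched to 69 members. The NRF1 motif (GCGCA, any base, then GCGC) was searched on both strands and occurred in 17 of the 69 (24.64%) against 7.17% of 17492 protein-coding genes. It occurred in 7 of 32 complex I members, 2 of 3 in complex II, 1 of 6 in complex III, 1 of 13 in complex IV and 6 of 15 in complex V. The ETS motif CCGGAAGT was found in 5 members (7.25%, against 5.69%) and the cyclic AMP response element TGACGTCA in 5 members (7.25%, against 2.54%). The windows below belong to members named further on: Uqcrfs1 and Cox6a1, whose groups did not overlap, Cycs and Sdha from a list of catalytic and other central members, and Ndufb4 and Atp5h, for which VPA replicate 4 stood apart. Capitals mark the motif, all lie on the minus strand and the letters run 5′ to 3′. A match is a description and not a bound site. The list is not complete, as Ndufb4 and Sdha each had another NRF1 window that is not shown.
Uqcrfs1 (response element, chr13:30545327-30545356): cggcgtcgcgcTGACGTCAcaaaccctgcg
Cycs (response element, chr6:50566720-50566749): aggccagagggTGACGTCAcgcacgtccac
Cox6a1 (NRF1 motif, chr5:115349056-115349085): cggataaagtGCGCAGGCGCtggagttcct
Cox6a1 (NRF1 motif, chr5:115349101-115349130): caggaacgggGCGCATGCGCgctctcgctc
Ndufb4 (NRF1 motif, chr16:37654371-37654400): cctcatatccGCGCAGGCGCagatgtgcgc
Ndufb4 (NRF1 motif, chr16:37654428-37654457): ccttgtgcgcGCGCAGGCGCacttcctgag
Sdha (NRF1 motif, chr13:74350276-74350305): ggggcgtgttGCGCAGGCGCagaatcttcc
Atp5h (NRF1 motif, chr11:115420041-115420070): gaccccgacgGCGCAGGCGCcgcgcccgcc

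The motif of Uqcrfs1 began 29 bases before the RefSeq start, within the longer gene model of GENCODE. Those of Cox6a1 began 117 and 162 bases before it. The transcripts of the members were short. The median of the per-gene transcript length was 683 bases over the 75 members that could be tested, against 2209 bases over 9663 protein-coding genes tested.

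Of the 87 members, 81 had a count in at least 1 library and 75 passed edgeR's filter on low counts. The most abundant in CTR was Cox4i1, a nuclear-encoded subunit of complex IV, at 385 ± 31.6 CPM (SD, n = 3), followed by Atp5j2 at 377 ± 14.1 CPM, Atp5k at 367 ± 93.2 CPM and Uqcrh at 355 ± 39.0 CPM. These neighbours in the order lay within their spread. The median level in CTR ranged from 55.0 CPM in complex II and 61.4 CPM in complex I to 99.1 CPM in complex III, 141 CPM in complex IV and 166 CPM in complex V, over the members with a count. With the members at 0 included it was 97.3 CPM in complex IV, below complex III, and 154 CPM in complex V. Sdhd, a membrane anchor of complex II, was the lowest tested member outside the genes with an overlapping neighbour, at 12.03 ± 2.93 CPM in CTR. Spearman's rho of the levels of the 75 members between pairs of libraries lay between 0.83 and 0.98, a description across genes that share libraries.

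Most tissue-restricted isoforms were at 0. Cox6a2, Cox7a1 and Cox8b, the isoforms of heart and skeletal muscle, had 0 counts in every library, as had Cox7b2 and Cox8c, known from testis. The liver-type partners Cox6a1, Cox7a2 and Cox8a had 5650, 4684 and 2861 counts in all. Of the 6 muscle markers examined, Myh1, Ckm and Actc1 were likewise at 0, Acta1 and Myh7 were at up to 0.788 and 3.26 CPM, and Tnnt2, a troponin of heart muscle, was at up to 21.5 CPM, in CTR replicate 2. Cox4i2, the hypoxia-linked form of Cox4i1, had 4 counts, Ndufa4l2 had 3 and Cox6b2, known from testis, had 16, all of them in VPA replicate 4, where these counts came to 3.02, 2.27 and 12.08 CPM. Counts on these 3 genes were thus seen in 1 library, and CTR was at the floor for each.

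No member passed an adjusted p of 0.05 in the comparison of VPA with CTR by edgeR's quasi-likelihood test with Benjamini-Hochberg adjustment. The lowest adjusted p was 0.393, of Cox6a1, and 1 of all 10876 genes tested passed (0.00919%). At an unadjusted p under 0.05, 5 members were higher with VPA, against 3.65% of all genes, and 0 were lower, against 4.62% (8.28% in either direction). DESeq2 called 0 members, against 1.01% of all genes. Of the 75 tested members, 50 had a positive log2 fold change (66.7%), against 45.8% of all genes. The median of the members was 0.19 on the log2 scale, against -0.06 over all genes, and it stayed above 0 in every fit tried, with 43 to 56 members above 0. Most estimates were narrow. The 95% interval lay within -1 and 1 on the log2 scale for 52 members (69.3%), against 28.2% of all genes.

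**Figure D1:**
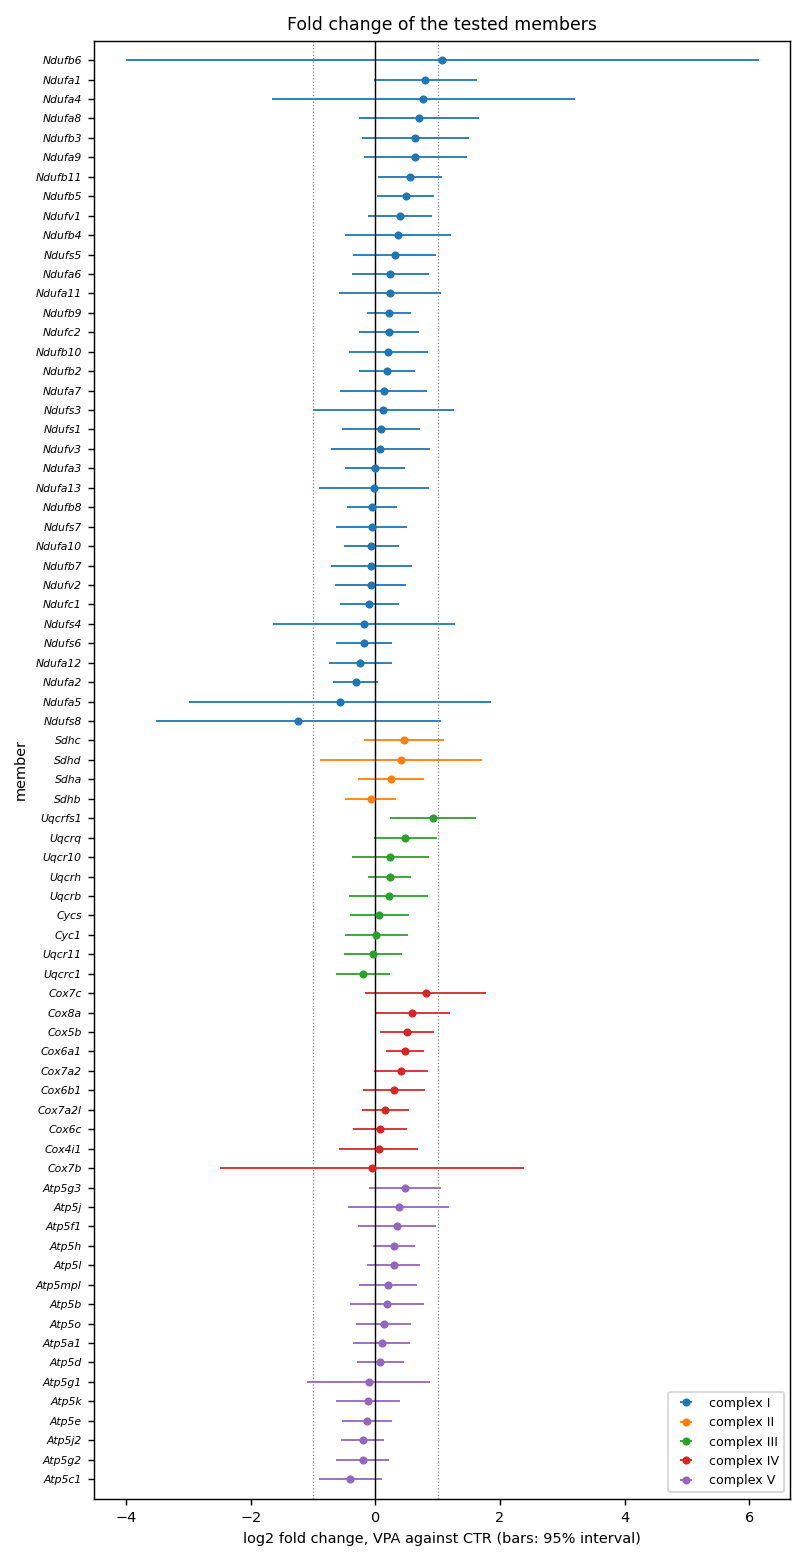
Log2 fold change (x axis) of 74 of the 75 tested members (y axis), VPA against CTR, grouped and coloured by complex and ordered by size within it; bars are 95% intervals of edgeR's fit and dotted lines mark -1 and 1. Most points lie right of 0 in complex IV, and the widest bars belong to members with counts of 0 or nearly 0 in some libraries, such as Ndufb6 and Ndufs8.

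The groups did not overlap in CPM for 3 of 75 tested members, all higher with VPA. This share is slightly below the 4.44% of all genes in that direction, so these members are given as a description. No overlap in the lower direction was seen for 0 members, against 7.41% of all genes. These 3 were Uqcrfs1, Cox6a1 and Cox5b, and Uqcrfs1 and Cox6a1 did not overlap under any of the 3 other scalings either. With plain library totals Cox5b overlapped and Ndufb11 did not. Uqcrfs1 (ENSMUSG00000038462, chr13:30540308-30545362, minus strand) encodes the Rieske iron-sulfur protein of complex III. Its level was 30.7, 43.2 and 36.2 CPM in CTR replicates 1 to 3 and 62.0, 105, 54.6 and 55.1 CPM in VPA replicates 1 to 4. All VPA libraries were above all CTR libraries, and VPA replicate 2 was well above the other three. The log2 fold change was 0.92 (SE 0.30, edgeR p = 0.0155, adjusted p = 0.473), and a two-sided exact permutation test, in which 35 arrangements of the libraries limit p to 0.0286 or more, gave p = 0.0857.

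Cox6a1 (ENSMUSG00000041697, chr5:115345642-115348981, minus strand) encodes a regulatory subunit of complex IV. It was at 271, 290 and 284 CPM in CTR and at 394, 442, 385 and 344 CPM in VPA. The CTR libraries lay close together, and even the lowest VPA library, replicate 4, was above them. The log2 fold change was 0.48 (SE 0.13, edgeR adjusted p = 0.393, exact permutation p = 0.0571).

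Cox5b (ENSMUSG00000061518, chr1:36691449-36693681, plus strand) encodes a zinc-binding subunit of complex IV. It was at 120, 138 and 133 CPM in CTR and at 174, 227, 195 and 141 CPM in VPA. VPA replicate 4 was only just above the highest CTR library. The log2 fold change was 0.50 (SE 0.19, edgeR adjusted p = 0.546, exact permutation p = 0.0571). A protein-coding copy, Gm11273, is identical to the Cox5b transcript over 214 bases of its 3′ end and held 353 counts against 2679 for Cox5b. The division of reads between the pair was not tested.

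**Figure D2:**
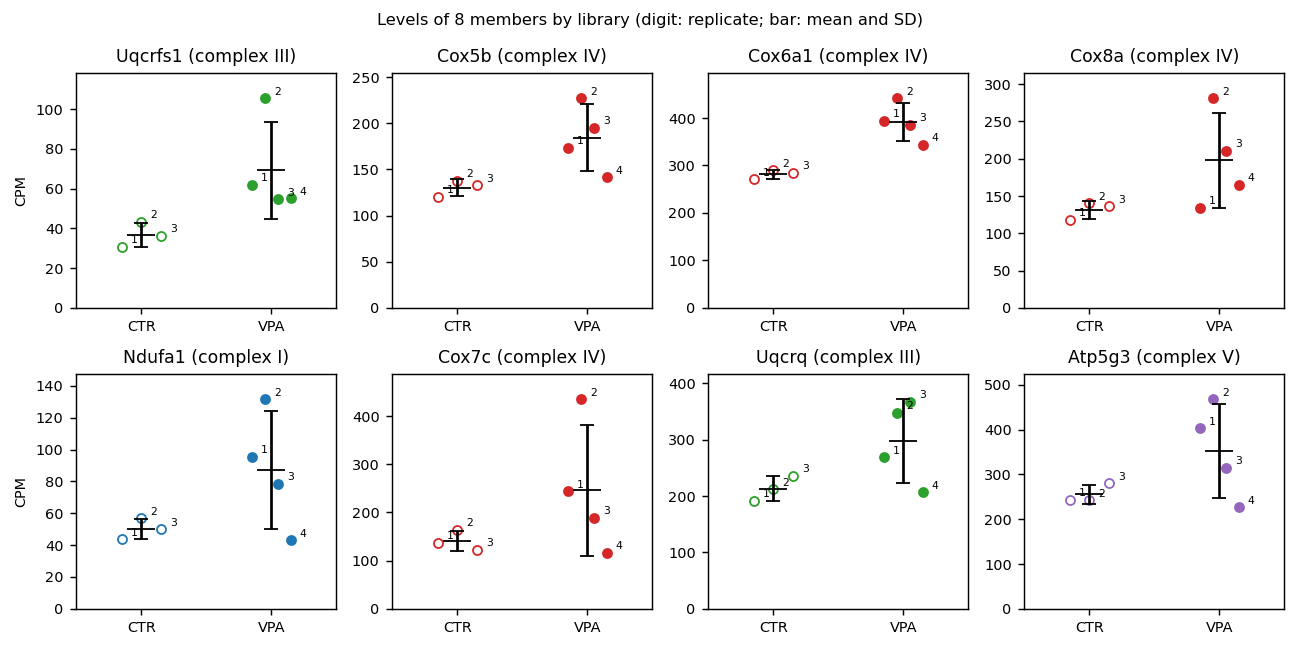
CPM (y axis, from 0) of 8 members in the CTR (open) and VPA (filled) libraries, with the replicate number beside each point and the group mean and SD as bars. In Uqcrfs1, Cox5b and Cox6a1 all 4 VPA points lie above the CTR points, whereas in Ndufa1, Cox7c, Uqcrq and Atp5g3, chosen after their values were seen, VPA replicates 1 to 3 lie above and replicate 4 does not.

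In complex I, 21 of 36 tested members were above 0 with VPA, around a median log2 fold change of 0.13. Without VPA replicate 3 this median was -0.0016. Ndufs1, Ndufs3, Ndufs7, Ndufs8 and Ndufv1 are among the core subunits of its matrix arm. Ndufv1, the NADH-binding subunit, was at 104, 84.2 and 130 CPM in CTR and 117, 117, 149 and 174 CPM in VPA (log2 fold change 0.40, SE 0.22, edgeR adjusted p = 0.726), and the log2 fold change was 0.24 without CTR replicate 2. Ndufs1 (log2 fold change 0.09), Ndufs3 (0.13) and Ndufs7 (-0.06) were near 0, and each changed sign in some alternatives.

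Ndufs8, an iron-sulfur subunit, had the lowest log2 fold change of all members, -1.24 with an SE of 0.98. It was at 46.1, 61.3 and 46.6 CPM in CTR and at 19.6, 15.99, 52.2 and 0 CPM in VPA. VPA replicate 3 lay among the CTR libraries, so the groups overlapped. The log2 fold change was -2.09 without VPA replicate 3, -0.84 without VPA replicate 4, -2.13 with limma-voom and -2.05 with slice culture as a block. A few other members assigned to complex I by symbol dropped out in 1 library. Ndufa5 was at 0 in VPA replicate 1 and at 112 to 228 CPM in the other VPA libraries, and Ndufa4 was at 0 in VPA replicate 4. Among the 73 members with a median of at least 20 CPM, 4 had 0 or 1 count in some library (Ndufa4, Ndufs8, Ndufa5 and Cox7b), against 11.2% of 5945 protein-coding genes of that level. Such zeros fell in 364 of these genes in VPA replicate 1 and in 18 to 187 in the other libraries. Why a gene at this level had no count in 1 library was not tested.

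Ndufb11 and Ndufb5, accessory subunits of the membrane arm, passed an unadjusted p of 0.05. Ndufb11 was at 57.1, 40.6 and 51.5 CPM in CTR and 75.1, 55.3, 77.9 and 83.8 CPM in VPA (log2 fold change 0.55, SE 0.22, edgeR adjusted p = 0.571). Ndufb5 was at 48.1, 54.2 and 43.9 CPM in CTR and 73.8, 76.9, 69.0 and 52.9 CPM in VPA (log2 fold change 0.48, SE 0.20, edgeR adjusted p = 0.575). In each, 1 VPA library lay within the CTR range. Both share exon bases with a gene on the other strand, Ndufb11 with Rbm10 (117 bases) and Ndufb5 with Mrpl47 (616 bases). The summed level of Ndufb11 and Rbm10 was 108, 72.9 and 101 CPM in CTR and 88.8, 81.8, 105 and 113 CPM in VPA. That of Ndufb5 and Mrpl47 was 139, 183 and 120 CPM in CTR and 162, 182, 132 and 150 CPM in VPA. The groups overlapped for both pairs, and as strand-aware counting is not given in the sources used here, the levels of Ndufb11 and Ndufb5 are uncertain.

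Of the 4 genes of complex II, 3 were above 0, and the median over them was 0.33 on the log2 scale, or 0.22 without VPA replicate 1 and 0.14 with slice culture as a block. Sdha, the flavoprotein that oxidises succinate, was at 56.7, 73.1 and 75.1 CPM in CTR and 106, 83.3, 74.7 and 60.4 CPM in VPA (log2 fold change 0.25, SE 0.23). Without VPA replicate 1 its log2 fold change was 0.096, and without CTR replicate 1 it was 0.12. Sdhb, the iron-sulfur subunit, had a log2 fold change of -0.07 (SE 0.18). The anchors Sdhc and Sdhd had values of 0.46 (SE 0.27) and 0.41 (SE 0.56). Without VPA replicate 2 these were 0.27 and 0.23, and Sdhd was at 0.26 without CTR replicate 3 and 0.69 without VPA replicate 4. None of the 4 passed the test.

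In complex III, 7 of 9 tested members were above 0 and the median log2 fold change was 0.21. It was 0.09 without CTR replicate 3 and also without VPA replicate 2. Apart from Uqcrfs1, the electron carriers were near 0. Cyc1, cytochrome c1, was at 86.3, 119 and 92.1 CPM in CTR and 125, 86.7, 78.7 and 111 CPM in VPA, a log2 fold change of 0.02 (SE 0.22). Cycs, the soluble cytochrome c, had a log2 fold change of 0.06 (SE 0.21), and Uqcrc1, a core protein, of -0.20 (SE 0.19; -0.11 without CTR replicate 3 and also without VPA replicate 1). Uqcrq, a small subunit that binds ubiquinone, had a log2 fold change of 0.48 (SE 0.22, edgeR adjusted p = 0.630).

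In complex IV, 9 of 10 tested members were above 0 and the median log2 fold change was 0.36. This median was above that of complex II with all libraries, but below it without VPA replicate 4 (0.42 against 0.48), with limma-voom (0.35 against 0.39) and with replicate number as a block (0.41 against 0.48). Its summed level was 1981, 2099 and 2065 CPM in CTR and 2053, 3219, 2710 and 2429 CPM in VPA. VPA replicates 2 to 4 were above every CTR library and replicate 1 was not, as was also the case for the summed level of complex III. Of the complex IV sum in VPA replicate 2, 207 CPM came from Cox5a, which had 0 counts in most other libraries. Without Uqcrc2, whose counts alternated with those of an overlapping gene, the complex III sum was 1164, 1381 and 1294 CPM in CTR and 1383, 1601, 1561 and 1452 CPM in VPA, so that all VPA libraries were above CTR, replicate 1 by a narrow margin. Besides Cox5b and Cox6a1, Cox8a had a log2 fold change of 0.59 (SE 0.26), Cox7a2 of 0.41 (SE 0.19) and Cox6b1 of 0.30 (SE 0.21). Without VPA replicate 2 the value was 0.11 for Cox6b1 and 0.38 for Cox8a. Cox4i1 (0.05, SE 0.27) and Cox7a2l, which takes part in supercomplex assembly (0.16, SE 0.16; 0.09 to 0.26 with a library left out), were closer to 0. Cox7b was at 0 in VPA replicate 1 and had a log2 fold change of -0.05 with an SE of 1.05.

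In complex V, 10 of 16 tested members were above 0 and the median log2 fold change was 0.12. It was 0.051 without VPA replicate 3, 0.060 without CTR replicate 1 and 0.020 with no filter on low counts. Atp5a1 and Atp5b, the α and β subunits of the catalytic head, had log2 fold changes of 0.10 (SE 0.19) and 0.19 (SE 0.26), and that of Atp5b was 0.045 without CTR replicate 1 and 0.37 without CTR replicate 3. Atp5c1, the γ subunit of the rotating stalk, had the lowest value, -0.40 (SE 0.22, edgeR adjusted p = 0.709), from 97.3, 78.5 and 123 CPM in CTR to 64.6, 74.4, 93.9 and 68.0 CPM in VPA. The 2 groups overlapped, and the log2 fold change was -0.25 without CTR replicate 3. Atp5g1, Atp5g2 and Atp5g3 encode the c ring subunit as the same mature protein. Atp5g3 had a log2 fold change of 0.47 (SE 0.25; 0.31 without VPA replicate 2), Atp5g2 of -0.21 (SE 0.18) and Atp5g1 of -0.11 (SE 0.43). Atp5g3 held 73.9 ± 0.963% of the counts on these genes in CTR (SD, n = 3) and 80.7 ± 4.87% in VPA (SD, n = 4). The libraries did not overlap, and the exact permutation test gave p = 0.0857; this share was examined after the values of the genes were seen. The pseudogene Gm10175, identical to Atp5g2 over 300 bases of the 3′ end, had 963 counts against 1035 for Atp5g2. Gm10039, which matches Atp5g1 at 99.5% over 186 bases, had 242 counts against 377 for Atp5g1. The levels of Atp5g2 and Atp5g1, and with them the share of Atp5g3, are therefore uncertain. With the 1319 counts on 5 such copies added to the total, an alternative chosen after seeing the data, the share was 60.5 ± 0.309% in CTR (SD, n = 3) and 68.3 ± 5.36% in VPA (SD, n = 4), and the groups again did not overlap.

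**Figure D3:**
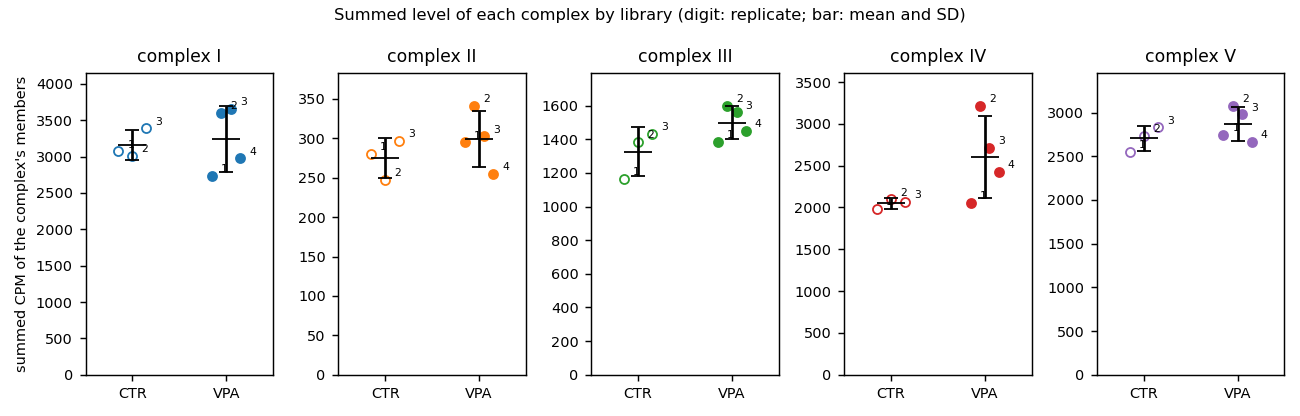
Summed CPM (y axis, from 0) of the members of each complex in the CTR (open) and VPA (filled) libraries, with replicate numbers and the group mean and SD as bars. The groups overlap in every complex; in complexes III and IV, VPA replicates 2 to 4 lie above all CTR libraries and replicate 1 does not. The complex III sum includes Uqcrc2, without which the groups do not overlap.

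The members together held 0.964 ± 0.111% of all counts in CTR (SD, n = 3) and 1.02 ± 0.157% in VPA (SD, n = 4), ranges that overlapped. Mitochondrially encoded genes took 14.5 to 27.7% of counts in CTR and 23.9 to 32.5% in VPA. With these left out of the total, the difference between the groups was 0.216 percentage points, against 0.052 with all counts. On that scale the groups did not overlap, at 1.16 to 1.23% in CTR and 1.26 to 1.63% in VPA, and neither did those of complexes III, IV and V.

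The VPA libraries were unlike each other. Relative to the mean of CTR, 63 of 75 members were above it in VPA replicate 3, 52 in replicate 2, 40 in replicate 1 and 35 in replicate 4. Of all genes tested, 48.0%, 48.8%, 44.3% and 48.1% were above it in VPA replicates 3, 2, 1 and 4, so the members' share was above that of all genes in replicates 1 to 3 and below it in replicate 4. For 15 of 75 members, VPA replicates 1 to 3 were above all CTR libraries while replicate 4 was not, against 3.58% of all genes tested. With another VPA library as the one that was not above CTR, the count was 5 members for replicate 1 (2.39% of all genes), 3 for replicate 2 (2.32%) and 0 for replicate 3 (3.09%), so the members' share was above that of all genes for replicates 1 and 2 too. The pattern was noticed after the values were seen and has no test. Ndufa1, an accessory subunit of complex I, was an example with 43.7, 56.8 and 49.9 CPM in CTR and 95.3, 132, 78.7 and 43.0 CPM in VPA. Cox7c, a small subunit of complex IV, was at 137, 163 and 123 CPM in CTR and 244, 435, 189 and 116 CPM in VPA. Atp5g3 was at 244, 242 and 281 CPM in CTR and 403, 468, 316 and 227 CPM in VPA. In all 3 genes VPA replicate 4 was below every CTR library. Ndufb4, an accessory subunit of complex I, was at 43.3, 45.9 and 60.3 CPM in CTR and 70.5, 84.9, 70.6 and 27.9 CPM in VPA. Atp5h, of the peripheral stalk of complex V, was at 185, 209 and 194 CPM in CTR and 267, 236, 263 and 204 CPM in VPA, with VPA replicate 4 within the CTR range. The same 15 members included Ndufa4, Ndufa6, Ndufa8, Ndufa9, Ndufb4, Ndufb5, Sdhc, Sdhd, Uqcrq, Cox6b1, Atp5h and Atp5j. In a fit without VPA replicate 4, 13 members were higher at an unadjusted p under 0.05, against 4.06% of all genes, and 2 were lower (Ndufa2 and Atp5j2), against 6.22%. In that fit 56 of 75 members were above 0, against 45.4% of all genes. The lowest adjusted p in it was 0.205, of Ndufa4, so again no member passed.

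The summed hepatocyte markers were lowest in VPA replicate 4, at 5729 CPM, against 10329.5 to 18438 CPM in the other VPA libraries and 8543 to 21764 CPM in CTR. Of the 10 markers of that list that were tested, 7 were higher with VPA and 0 passed. The summed stellate cell and myofibroblast markers were 1547 to 3100 CPM in CTR and 845 to 1129 CPM in VPA, with 9 of 9 lower and 0 at an adjusted p under 0.05 by edgeR. DESeq2 called 2 of them lower, Col1a1 (adjusted p = 4.39e-07) and Col1a2 (adjusted p = 0.000539), and 3 of the 9 had groups that did not overlap. The part of these in the members' levels was not tested.

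**Figure D4:**
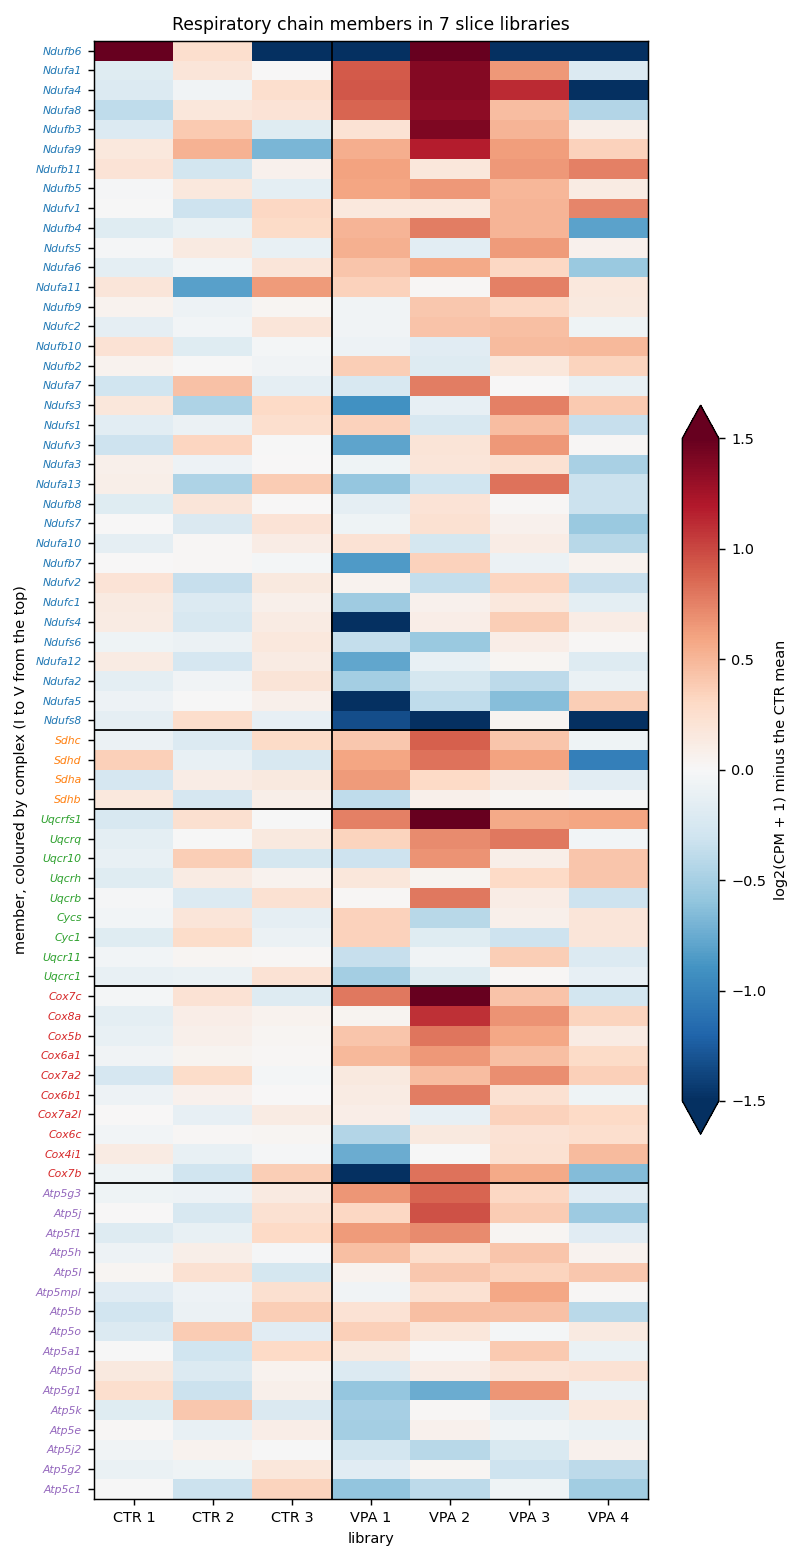
Log2 of CPM plus 1 minus the mean of the CTR libraries (colour) for 74 of the 75 tested members (rows, by complex and fold change) in the 7 libraries (columns). Red is above and blue below the CTR mean, and the colour is capped at 1.5; VPA replicates 2 and 3 are red in most rows of complex IV, and VPA replicate 4 is blue in members such as Ndufa4, Ndufb4 and Sdhd.

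The titles of the samples carry a number from 71 to 74, taken here as that of the slice culture, although neither the labels nor the study's methods explain it. Within culture 71, 56 of 75 members were higher in the VPA library than in the CTR library (median log2 difference 0.22), within culture 74 it was 54 (0.30) and within culture 72, that of VPA replicate 4, it was 41 (0.05). Complex IV members were higher in 10, 9 and 8 of 10. Over all genes the share that was higher lay between 45.7 and 47.0%. VPA replicate 1 carries the number 73, which no CTR library has. Each of the other 3 numbers has 1 library a group, so no single culture can be tested. In the edgeR fit with slice culture as a block, 53 of 75 members were above 0 (70.7%), against 43.6% of all genes, and 0 members passed an adjusted p of 0.05.

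For 3 members, counts alternated with those of an overlapping gene. Cox5a and Uqcrc2, which encode a subunit of complex IV and a core protein of complex III, did not pass the filter. Cox5a had 0, 17 and 0 counts in CTR and 0, 672, 0 and 0 counts in VPA, whereas Gm26631, which shares 1140 bases on the other strand, had 235, 606 and 199 counts in CTR and 0, 0, 0 and 131 counts in VPA. In no VPA library did both genes have counts. Uqcrc2 had 0, 23 and 253 counts in CTR and 0 in each VPA library, and Pdzd9, which shares 794 bases, had 352, 0 and 0 counts in CTR and 0, 0, 0 and 156 counts in VPA. Ndufb6, an accessory subunit of complex I, had 312 counts in VPA replicate 2 and 0 in the other VPA libraries, and Smim27, which shares 350 bases, had 0 in VPA replicate 2 and 48 to 86 in the others. The use of strand in counting is not given in the sources used here, so reads of a member and its partner cannot be told apart. The level of these 3 members is therefore uncertain. Of the 87 members, 30 share exon sequence with another gene, and the same limit holds where that gene has counts. Over the 46 tested members with no such overlap and more than 1 count in every library, 31 were higher with VPA and the median log2 fold change was 0.21.

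**Figure D5:**
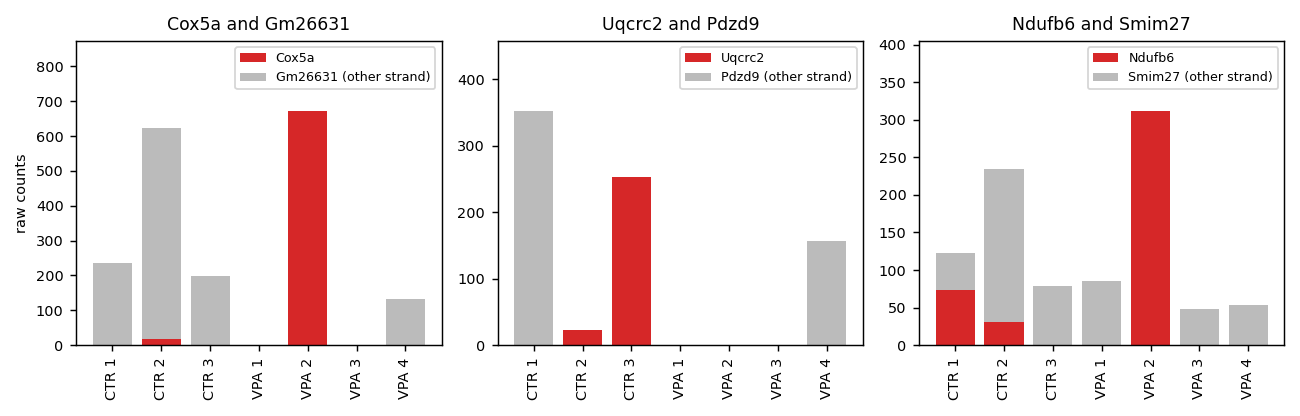
Raw counts (y axis, from 0) of Cox5a, Uqcrc2 and Ndufb6 (red), stacked with those of the gene that overlaps each on the other strand (grey), in the 7 libraries (x axis). In VPA replicate 2 the counts lie on Cox5a and Ndufb6 alone, while in most other libraries with counts on either pair the larger part lies on the partner; for Uqcrc2 the counts lie mainly on the member in CTR replicates 2 and 3 and on the partner in CTR replicate 1 and VPA replicate 4.

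Near-identical copies were found for 24 members (at least 95% identity over at least 100 bases of the last 300 bases), and for 9 of them the copies held over 10% of the member's own counts. The highest share was at Atp5l, a subunit of the membrane part of complex V, whose 12 copies held 1761 counts against 1491 on Atp5l.

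Among the other genes of the pathway, none passed an adjusted p of 0.05 by edgeR, and DESeq2 called 2, Suclg2 and mt-Nd6. The mitochondrially encoded subunits were higher in 13 of 13 genes, around a median of 0.44 on the log2 scale, and 2 were at an unadjusted p under 0.05, mt-Nd6 and mt-Nd3. mt-Nd6, the one subunit gene on the light strand, was at 1186, 784 and 797 CPM in CTR and 3292, 1395, 1904 and 2811 CPM in VPA. Every VPA library was above every CTR library (log2 fold change 1.35, SE 0.33, edgeR adjusted p = 0.320). Its end overlaps mt-Nd5 on the other strand and the nuclear genome holds copies of mitochondrial genes, so these levels are uncertain.

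Of 16 genes of the citric acid cycle and pyruvate dehydrogenase, 12 were higher and 3 of these had an unadjusted p under 0.05: Suclg2, Cs and Fh1. Suclg2, a subunit of the GTP-forming succinyl-CoA ligase, was at 20.9, 24.2 and 25.8 CPM in CTR and 72.5, 112, 60.2 and 61.9 CPM in VPA. The groups lay far apart (log2 fold change 1.70, SE 0.28, edgeR adjusted p = 0.142). Fh1, fumarate hydratase, had a log2 fold change of 1.10 (SE 0.41) and Cs, citrate synthase, of 0.63 (SE 0.24).

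Of 10 tested regulators of mitochondrial biogenesis, 4 were higher and 1 had an unadjusted p under 0.05. This was Ppargc1a, a coactivator of NRF1 and other factors, at 4.33, 3.35 and 10.4 CPM in CTR and 17.0, 18.8, 22.5 and 23.4 CPM in VPA. All VPA libraries were above CTR, on 11 to 19 counts in CTR and 26 to 61 in VPA (log2 fold change 1.77, SE 0.55, edgeR adjusted p = 0.447). Nrf1 (log2 fold change -0.26, SE 0.53) and Tfam (-0.08, SE 0.29) were near 0.

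Assembly factors of complexes I and II were higher in 10 of 17 genes, and those of complexes III to V in 10 of 24. At an unadjusted p under 0.05, 2 genes of each list were higher, Ndufaf4 (log2 fold change 0.80, SE 0.25) and Ndufaf2 (0.64, SE 0.27) in the first and Cox17, a copper chaperone of complex IV (1.06, SE 0.39) and Cox19 (0.61, SE 0.25) in the second, and Ndufaf8 (-0.69, SE 0.28) was lower. Genes of mitochondrial import and carriers were higher in 11 of 17, with 1 lower at an unadjusted p under 0.05, the chaperone Hspd1. Of 6 tested genes of other routes of electron entry, 4 were higher. None of these passed the adjusted threshold.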

How the data were processed

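RNA of 3 CTR and 4 VPA slice libraries was analysed. The authors prepared 3′ end libraries, mapped the reads with STAR to mm10 and used StringTie, and they deposited raw counts per Ensembl gene without normalization. Which program counted the reads, and how it treated strand and reads with several matches, is not given in the sources used here. The counts were tested with edgeR 4.0.16 in R 4.3.3 (TMM, filterByExpr, robust quasi-likelihood fit, condition as the only term) over 10876 genes, with Benjamini-Hochberg adjustment. Intervals and standard errors come from this fit. DESeq2 1.42.0 and limma-voom (limma 3.58.1) were alternatives, with other normalizations, filters, replicate blocks and each library left out. Log2 CPM used a prior count of 2. Code was tested on simulated data.

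Symbols, coordinates and overlaps came from GENCODE M21 (GRCm38), promoters from RefSeq and copies from blastn 2.17.0. No 2 libraries of a group were alike within counting noise. The named genes were the members without overlap between the groups, a list of catalytic and other central members, the isoform sets and any member with an adjusted p under 0.05. Others were chosen after their values were seen. The value of 1 member is not reported here, and it is left out of the plots but not of the counts. The members and all gene lists were chosen with earlier results of these data known. Lists not described above were those for cholangiocytes (2 of 4 tested higher), endothelium (1 of 5), macrophages (3 of 3), muscle (0 of 1) and 3 single genes outside the naming rule, Ndufab1, Atpif1 and Ucp2 (1 of 3), with 0 at an adjusted p under 0.05.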

Additional observations from a re-analysis of the deposited data

Results flagged for a closer look

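Among 34 values examined in the 4 VPA libraries, 2 had a library that stood apart from the rest by Dixon's ratio of gap to range. For Uqcrfs1 the ratio was 0.854, because VPA replicate 2, at 105 CPM, lay above 54.6 to 62.0 CPM in the other VPA libraries. Without VPA replicate 2 the log2 fold change of Uqcrfs1 was 0.65, against 0.92 with all libraries. For the library total the ratio was 0.932, again for VPA replicate 2, with 3102450 counts against 1400887 to 1515954. Chance flags about 1 in 20 such groups.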

How the results depend on the processing

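No member passed an adjusted p of 0.05 under any of the 16 alternatives. The number of members whose groups did not overlap was 3 under each of 3 other scalings, the same members with RLE and upper quartile, but with Ndufb11 in place of Cox5b with plain library totals. The counts at an unadjusted p under 0.05 depended on the setting, and the cause was not tested. The share of all genes at that p was counted only for the main edgeR fit and for the fit without VPA replicate 4. In the other fits the members' counts therefore cannot be set against all genes. Higher members numbered 5, but 3 with DESeq2, 6 with RLE size factors and with upper quartile, 2 with no filter, 14 with replicate number as a block, 10 with slice culture as a block, and 2 to 13 with a library left out: 2 without CTR replicate 1, CTR replicate 3 or VPA replicate 3, 3 without VPA replicate 2 and 13 without VPA replicate 4. Lower members numbered 0, but 1 with limma-voom, with no filter, with replicate number as a block and with a total of at least 70 counts, and 0 to 2 with a library left out. DESeq2 called 2 other genes of the pathway. Libraries of the same slice culture number correlated in their deviations at r = 0.107, 0.0256 and 0.0546. Those of the same replicate number correlated at -0.0539, 0.0546 and 0.107. The value of -0.0539 is from replicates 1, which carry culture numbers 72 and 73, and the other pairs also share a culture number. VPA replicates 2, 3 and 4 each correlated best with the CTR library of their culture number. CTR replicates 1 and 2 correlated better with VPA replicates 3 and 1 (r = 0.0506 and 0.0714). These values are small and do not settle a pairing. The main fit and the permutation tests did not pair libraries, and slice culture was a block in an alternative only.

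The median log2 fold change of all members stayed between 0.08 and 0.23, and was 0.21 over members without exon overlap, an alternative chosen after seeing the data. Also added after seeing the data, the summed CPM differed (VPA minus CTR) by 220 CPM for complex III without Uqcrc2, against 172 CPM with it, and by 504 CPM for complex IV without Cox5a, against 555 CPM with it. The median log2 fold change of complex III was 0.095 when CTR replicate 3 was left out and 0.089 when VPA replicate 2 was. Over all genes the median was -0.06, but -0.14 with limma-voom and with replicate number as a block and -0.16 with no filter. With mitochondrially encoded genes left out of the total, the difference in share of counts was 0.216 percentage points for all members, 0.039 for complex I, which was -0.0068 with all counts, 0.035 for complex III, 0.092 for complex IV and 0.045 for complex V. 

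Of 27 named members 16 kept their sign throughout, and none of the others passed the test. With slice culture as a block the log2 fold change was -0.043 for Ndufs1, 0.030 for Sdhb, -0.11 for Cyc1, -0.058 for Cycs, 0.27 for Cox7b and -0.046 for Ndufa4. With replicate number as a block it was -0.079 for Ndufs3, 0.084 for Ndufs7, -0.051 for Cyc1, -0.0017 for Cycs and -0.17 for Cox4i1. With limma-voom it was 0.0081 for Ndufs7, -0.026 for Cyc1, -0.0039 for Cycs and -0.017 for Cox4i1. With no filter it was -0.016 for Ndufs1, -0.086 for Cyc1, -0.041 for Cycs and -0.041 for Cox4i1. With a library left out it ranged from -0.065 to 0.20 for Ndufs1, -0.16 to 0.37 for Ndufs3, -0.17 to 0.074 for Ndufs7, -0.20 to 0.021 for Sdhb, -0.11 to 0.16 for Cyc1, -0.039 to 0.21 for Cycs, -0.13 to 0.24 for Cox4i1, -0.049 to 0.24 for Atp5a1, -0.53 to 0.36 for Cox7b and -0.49 to 0.077 for Atp5g1.

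A library of 1400887 counts resolves a level of about 10 CPM on few counts, so low members such as Sdhd have wide intervals.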
